A study of Mus musculus with 12 samples.

Results

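The comparison described here sets cells collected at day 3 against cells collected at day 1 of culture, among mouse splenic B cells labelled as depleted of Jmjd2a (Kdm4a). It rests on 4 of the 12 arrays of the study, chosen by their titles: 2 of Jmjd2a-depleted cells at day 1 and 2 at day 3. All groups used here came from C57BL/6 mice that carry the Tg(IghelMD4)4Ccg transgene, known as MD4, which gives B cells a receptor for hen egg lysozyme (HEL). Ages and the number of mice are not given in the sources used here. B220+ cells were selected from spleen with magnetic beads and stimulated with an antibody against CD40, with IL21 and with HEL, agents that mimic T cell help and antigen. The depleted cells received siJmjd2a according to the treatment text and a virus with shJmjd2a according to the source names, and the controls sicontrol or a shcontrol virus. The 2 control groups, at day 1 and day 3, and the 2 groups labelled Jmjd2c-depleted at the same days, with 2 arrays each, serve for comparison.

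Jmjd2a removes methyl groups from histone H3 lysines, chiefly H3K9 and H3K36, and the series addresses which genes it and Jmjd2c regulate as B cells turn into plasma cells. In such a culture, resting B cells that express CD23, CD21, MHC class II and the quiescence factor Klf2 are activated, enlarge and divide. Some then switch from the B cell programme held by Pax5, Bcl6 and Bach2 to the plasma cell programme of Irf4, Prdm1 and Xbp1, with secretion of antibody.

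Values were log2 probe set values of Affymetrix mouse expression arrays. Array medians lay between 5.2 and 5.25, and array values carry no read depth, so precision comes from the spread between arrays. The labels speak of biological replicates without saying which mice or cultures each came from, so p-values measure only the spread between these arrays, which may be technical. Both day 3 arrays labelled Jmjd2a-depleted went against the order their labels give: over all probe sets they correlated at 0.9963 to 0.9969 with control arrays of day 1, at 0.9897 to 0.9924 with arrays of their own label at day 1, and at 0.9786 to 0.9908 with control arrays of day 3. The Jmjd2c label showed the same order. Its day 3 arrays correlated at 0.9945 to 0.9964 with day 1 controls and at 0.9877 to 0.9890 with their own label at day 1. Day 3 arrays of both depletion labels correlated with each other at 0.9958 to 0.9969. Control day 3 replicate 2 stood apart, with a narrower interquartile range (3.08 against 3.38 to 3.63) and a lower 18S control signal (10.73 against 11.73 to 12.73). On the 4 Jmjd2a arrays the 18S signal was 12.54 and 12.20 at day 1 and 12.21 and 12.34 at day 3. The excess of 3' over 5' actin signal, a sign of RNA breakdown, was 0.44 and 0.54 at day 1 and 0.49 on both day 3 arrays.

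The transcript that the labels name as depleted did not differ between the days. Kdm4a read 7.94 and 8.09 at day 1 and 8.08 and 8.05 at day 3 (log2 difference 0.05, SE 0.09, limma adjusted p = 0.88). Control arrays read 7.90 and 7.92 at day 1 and 8.20 and 8.17 at day 3, so the labelled arrays held no less Kdm4a transcript than controls at day 1. At day 3 they held 92% of the control level. Kdm4c gave 8.0 and 8.09 at day 1 against 7.90 and 7.91 at day 3 (-0.14, adjusted p = 0.65). Of 17 measured members of a list of H3K9 demethylases, methyltransferases and their readers, 0 rose and 3 fell: Kdm7a by 1.41, Jmjd1c by 0.51 and Kdm3b by 0.32. The list's median was -0.02, and 0.01 after quantile normalization. These counts use brightest probe sets. The methyltransferase gene Suv39h2 did not pass at its own, and another of its probe sets passed as higher (0.55, limma adjusted p = 0.017). Kdm3b lost its call without day 1 replicate 1 or without either day 3 array, with adjusted p = 0.038 over all arrays.

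From day 1 to day 3 transcripts of mature and resting B cells and of macrophages fell, and transcripts of dividing cells rose by smaller steps. The list of macrophage markers had a median of -2.01, and that of mature B cell factors and receptors -0.28. Of 45037 probe sets, 2527 passed the test at an adjusted p under 0.05 (5.61%), 1017 of them higher (2.26%) and 1510 lower (3.35%) at day 3. Taking for each of 18193 genes its brightest probe set, 1405 genes passed (7.72%), 620 higher (3.41%) and 785 lower (4.31%). These shares are the ones to set beside the counts of list members below, which use the same probe sets. The falls were larger than the rises: 251 genes fell and 20 rose at least 2-fold, 67 fell and 2 rose at least 4-fold, and 25 fell and 0 rose at least 8-fold. The median log2 difference was 0.43 among genes that rose, -0.73 among those that fell and 0.04 over all genes. Values of both days did not overlap in 23196 probe sets (51.5%). The number of probe sets past the test was 950 without day 1 replicate 1, 826 and 761 without day 3 replicate 1 or 2, and 5542 without control day 3 replicate 2, whose spread enters the shared variance. In that last fit more probe sets were higher (2873) than lower (2669).

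**Figure D1:**
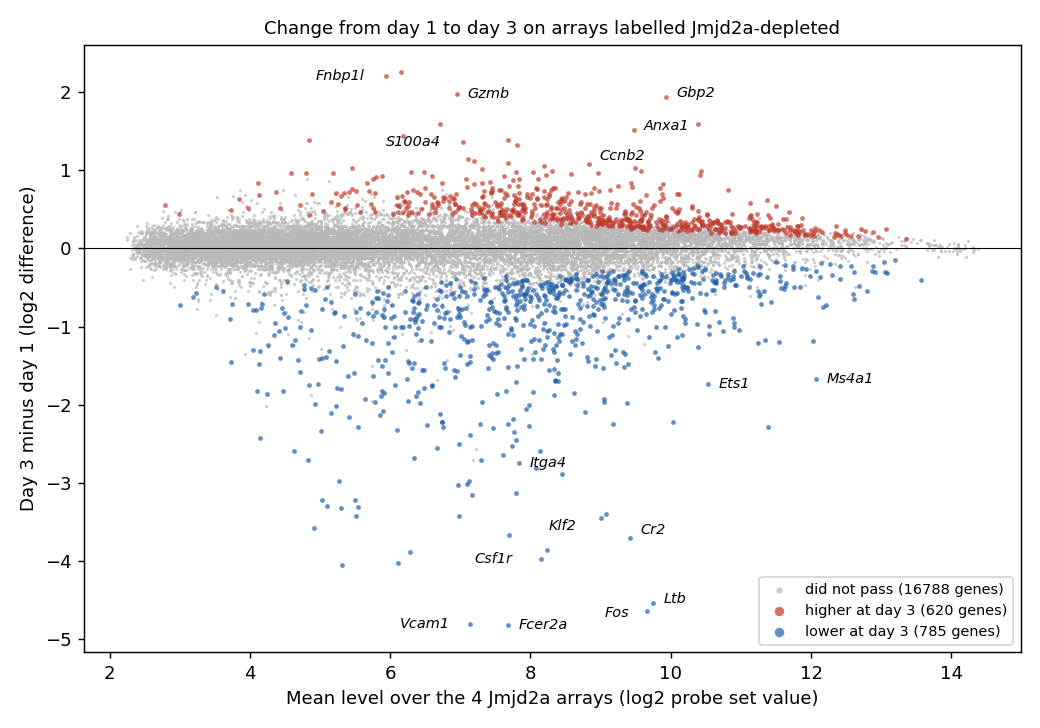
Log2 difference between day 3 and day 1 (vertical axis) against the mean log2 level over the 4 arrays labelled Jmjd2a-depleted (horizontal axis), 1 point per gene; red points passed the test as higher and blue points as lower at day 3, grey points did not pass. The 785 blue points reach to -4.81 (Fcer2a), while the 620 red points end at 2.25.

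The largest fall was that of Fcer2a, which encodes CD23, the low-affinity IgE receptor of mature B cells. It read 10.42 and 9.75 on the day 1 arrays and 5.35 and 5.2 on the day 3 arrays. Both day 1 arrays lay far above both day 3 arrays, and the fall was 28.1-fold (log2 difference -4.81, SE 0.21, limma adjusted p = 2.6e-07). Cr2, the complement receptor that B cells use to take up opsonised antigen, went from 11.09 and 11.45 to 7.58 and 7.57, a 13.0-fold fall (-3.70, SE 0.19, adjusted p = 6.4e-07). Cd55, a surface inhibitor of complement, went from 9.80 and 9.25 to 5.94 and 5.79 (-3.66, SE 0.16, adjusted p = 3.4e-07). For it and the pair before it, lack of overlap between days was a condition of the choice, met by 51.5% of all probe sets. In bulk RNA such a fall cannot tell fewer cells of a type apart from less RNA per cell.

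The wider list of mature B cell factors, receptors and co-receptors had 25 measured members, of which 12 fell and 1 rose, with a median of -0.28. Ms4a1 (CD20) was at 13.10 and 12.71 at day 1 and at 11.28 and 11.20 at day 3, a 3.18-fold fall (SE 0.10 on a log2 difference of -1.67). Ets1, a transcription factor that restrains plasma cell formation, was at 11.42 and 11.39 and then at 9.66 and 9.68 (-1.74, SE 0.08, adjusted p = 4.4e-07). Cd79b, a signalling chain of the B cell receptor, was at 12.84 and 12.41 and then at 11.43 and 11.44 (-1.19, adjusted p = 2.4e-05). All 3 genes were high on both day 1 arrays and low on both day 3 arrays. Cd79a (-1.21), Fcrla (-1.42), Ciita (-0.98), Cd37 (-0.61), Cd22 (-0.52), Blnk (-0.25) and Ptprc (-0.15) fell too. Fcgr2b, the inhibitory Fc receptor, was the member that rose, by 0.17. Pax5, the factor that holds B cell identity, read 7.36 and 6.94 at day 1 and 7.11 and 7.09 at day 3 (-0.05, adjusted p = 0.92). Bach2 differed by 0.10 (adjusted p = 0.31) and Foxo1 by -0.22, and neither passed. The B cell factor Ebf1 did not pass at its brightest probe set (-0.37), and 3 of its others passed as lower (-0.38, -0.49 and -0.92). The number of fallen members was 8 without day 1 replicate 1 or without day 3 replicate 2, and 20 without control day 3 replicate 2.

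Defining B cell markers stayed above the array medians on all 4 arrays. Of 7 measured, 6 fell and 0 rose. The mean log2 level of the list was 11.29 and 10.97 at day 1 and 10.40 and 10.42 at day 3, against 10.37 and 10.32 on control arrays of day 1 and 10.67 and 10.58 on those of day 3.

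All 11 measured genes of MHC class II antigen presentation fell, with a median of -0.71. H2-Oa and H2-Ob, the chains of the H2-O molecule that tempers peptide loading in B cells, fell most. H2-Ob read 11.40 and 10.87 at day 1 and 8.94 and 8.90 at day 3 (-2.22, SE 0.13, adjusted p = 2.7e-06), and H2-Oa 10.37 and 10.23 and then 8.07 and 8.05 (-2.24, SE 0.19, adjusted p = 3.7e-05). The loading factors H2-DMb2 and H2-DMa fell by 1.17 and 0.99. The classical chains, which present the peptide, fell less: H2-Ab1 by 0.65, H2-Eb1 by 0.48 and H2-Aa by 0.40. H2-Aa read 13.79 and 13.75 at day 1 and 13.37 and 13.38 at day 3. The invariant chain Cd74 (-0.49), the cathepsin Ctss (-0.39) and the thiol reductase Ifi30 (-0.71) completed the list. The controls gave a median of 0.24 for it, and the Jmjd2a change differed from the control change in all 11 members, in a test whose share over all genes was 23.3%.

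Genes of lymphocyte quiescence formed the next block of falls: 12 of 17 measured members fell, 0 rose, and the median was -0.96. Klf2, the Krüppel-like factor that keeps lymphocytes resting and recirculating, read 11.20 and 10.26 at day 1 and 7.41 and 7.14 at day 3 (-3.45, SE 0.27, adjusted p = 1.8e-05). Tsc22d3, also known as Gilz and induced by FoxO factors and glucocorticoids, read 11.15 and 10.39 and then 7.46 and 7.29 (-3.40, SE 0.20, adjusted p = 2.3e-06). Klf4 read 8.77 and 8.19 and then 5.66 and 5.27 (-3.02, SE 0.23, adjusted p = 1.3e-05). Each of these was lower by several log2 units on both day 3 arrays, and each was also lower on day 1 replicate 2 than on day 1 replicate 1. Rasgrp2 (-3.42), S1pr1 (-2.71), Klf3 (-1.88), Pik3ip1 (-1.53), Txnip (-1.47), Foxo3 (-0.96), Btg1 (-0.55), Ypel3 (-0.53) and Klf6 (-0.47) made up the rest of the falls. Day 1 replicate 2 lay below replicate 1 by a mean of 0.30 over the list, and 10 to 14 members passed when any of the 4 arrays or control day 3 replicate 2 was left out. Cdkn1b, the inhibitor p27 that marks resting lymphocytes, read 9.57 and 9.21 and then 8.64 and 8.73 (-0.71, SE 0.15, adjusted p = 0.015). That call was lost without day 1 replicate 1 and without either day 3 array. Control arrays moved the other way for Cdkn1b, by 0.71.

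**Figure D2:**
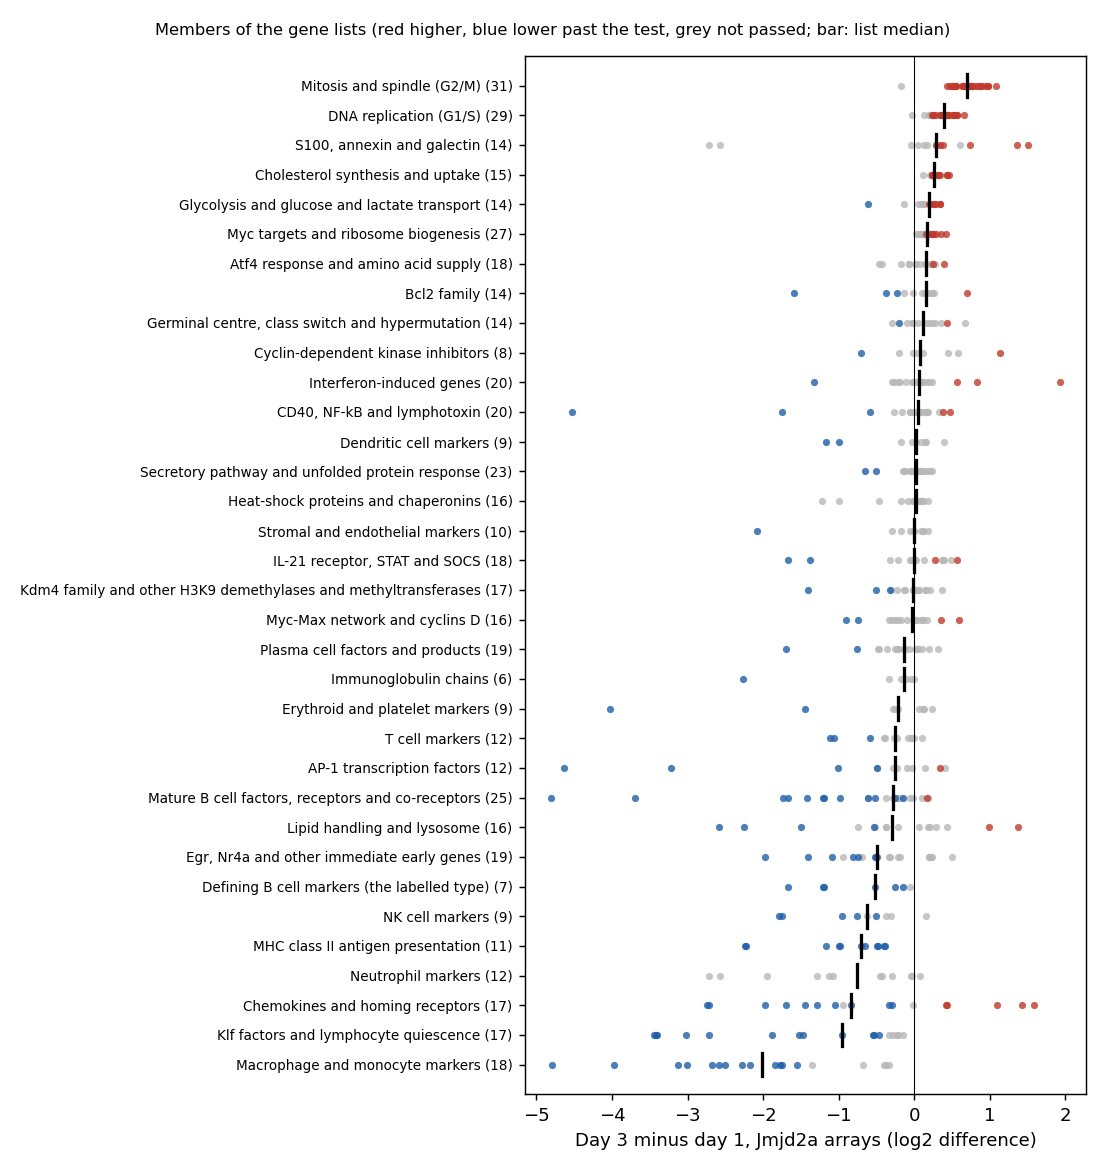
Log2 difference between day 3 and day 1 on the arrays labelled Jmjd2a-depleted (horizontal axis) for each measured member of 34 gene lists (vertical axis, ordered by median, number of measured members in parentheses); red and blue points passed the test as higher or lower, and black bars mark medians. Mitosis genes have the highest median (0.70) and macrophage markers the lowest (-2.01).

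The AP-1 and immediate early genes, which answer fresh stimulation or handling of cells within minutes, fell in part. Of 12 AP-1 genes 4 fell and 1 rose, and of 19 other immediate early genes 8 fell and 0 rose. Fos, the partner of Jun in AP-1, read 12 and 11.94 at day 1 and 7.55 and 7.13 at day 3, a 24.9-fold fall (-4.64, SE 0.16, adjusted p = 2.5e-08). Fosb went from 6.66 and 6.60 to 3.59 and 3.24 (-3.22, SE 0.22, adjusted p = 6.3e-06). Both genes were high at day 1 and low at day 3 with little spread within a day. Jun fell by 1.01 and Atf3 by 0.49, while Batf, the AP-1 member needed for class switching, rose by 0.34. Junb (-0.10) and Fosl2 (0.41) did not pass. Dusp1, a phosphatase that ends MAP kinase signalling, read 10.28 and 10.45 and then 8.47 and 8.30 (-1.98, SE 0.17, adjusted p = 3.7e-05). The mRNA decay factor Zfp36 fell by 1.40, Ier5 by 1.09, and the antiproliferative gene Btg2 by 0.81, from 11.06 and 10.74 to 10.10 and 10.07. Egr2, Egr3, Nr4a1 and Nr4a3, which follow B cell receptor signals, differed by 0.22, 0.24, -0.69 and 0.19, and none passed. Nr4a2 did not pass at its brightest probe set, and another of its probe sets passed as higher (0.63, limma adjusted p = 0.03). Without day 3 replicate 1 or 2, 2 AP-1 genes and 5 of the other immediate early genes had fallen; Jun and Batf were among those that lost their call.

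Dusp1 and Btg2 were the members of the immediate early list with a full cAMP response element (CRE, TGACGTCA, its own reverse complement) in the promoter window of RefSeq, from 250 bases before to 50 bases after the transcription start on GRCm38.p6. The element lay in 2 of 20 such windows (10%), against 2.49% of windows of measured genes and 1.79% of all. Both are shown because both genes fell, at chr17:26508423-26508722 (minus strand) for Dusp1 and chr1:134079106-134079405 (minus strand) for Btg2, each 5′ to 3′ with the CRE in capitals. These matches describe letters only.
Dusp1: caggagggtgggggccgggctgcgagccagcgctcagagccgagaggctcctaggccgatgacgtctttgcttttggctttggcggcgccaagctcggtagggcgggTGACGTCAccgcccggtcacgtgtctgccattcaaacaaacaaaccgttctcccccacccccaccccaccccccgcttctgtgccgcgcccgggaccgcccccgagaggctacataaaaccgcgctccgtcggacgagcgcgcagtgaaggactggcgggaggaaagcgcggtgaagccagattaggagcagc
Btg2: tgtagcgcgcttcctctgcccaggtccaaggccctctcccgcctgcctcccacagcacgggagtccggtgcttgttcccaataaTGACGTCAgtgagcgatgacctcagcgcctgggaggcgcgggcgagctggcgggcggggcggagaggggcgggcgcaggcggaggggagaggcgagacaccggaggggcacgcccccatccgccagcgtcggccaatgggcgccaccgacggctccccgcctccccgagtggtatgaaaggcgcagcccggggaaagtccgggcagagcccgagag

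Receptors, adhesion molecules and chemokines that place B cells in tissue moved in both directions. Of 17 measured, 10 fell and 5 rose, with a median of -0.84. Itga4, an integrin chain that binds Vcam1, read 9.45 and 8.97 at day 1 and 6.45 and 6.5 at day 3 (-2.74, SE 0.14, adjusted p = 7.2e-07). Its partner Itgb7 fell by 1.45. Ccl5, a chemokine of activated lymphocytes, fell by 1.97. The egress receptors S1pr1 and S1pr4 fell by 2.71 and 1.05, the bone marrow receptor Cxcr4 by 1.70, and the follicle and T zone receptors Cxcr5 and Ccr7 by 0.84 and 1.29. The 5 rises were of Cxcr3 and of chemokine genes. Cxcl10, a ligand of Cxcr3, read 5.63 and 6.19 and then 7.59 and 7.41 (1.59, SE 0.22, adjusted p = 0.0013), Cxcr3 itself 7.04 and 7.22 and then 8.37 and 8.07 (1.09), and Ccl22, which draws Ccr4-bearing T cells, 5.55 and 5.4 and then 6.98 and 6.83 (1.43, SE 0.21). Day 3 arrays were the higher ones for each. Ccl3 and Ccl4 rose by 0.42 and 0.44. The count of rises stayed at 5 when any of the 4 arrays or control day 3 replicate 2 was left out.

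Among genes of CD40, NF-kB and lymphotoxin, 3 of 20 fell and 2 rose, with a median of 0.05. Ltb, the lymphotoxin chain through which B cells keep follicle structure, read 12.48 and 11.55 at day 1 and 7.64 and 7.31 at day 3, a 23.2-fold fall (-4.53, SE 0.22, adjusted p = 5.7e-07). Lta fell by 1.75 and the inhibitor of apoptosis Birc3 by 0.59. The adaptor Traf1 and the costimulator Cd86 rose by 0.48 and 0.38, and 0 members rose without day 1 replicate 1 or either day 3 array. Cd40 (-0.06), Rel (0.09) and Nfkbia (0.01) did not pass. Of 18 genes of IL21 receptor and STAT signalling 2 fell (Il6ra by 1.67, Il10ra by 1.38) and 2 rose (Il21r by 0.27, Socs2 by 0.56). The calls of Il21r and Socs2 were lost under the same omissions, and 6 members rose without control day 3 replicate 2.

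Markers of other spleen cells moved alongside these falls. Of 18 macrophage and monocyte markers 13 fell and 0 rose, with a median of -2.01, and the list's mean log2 level was 7.56 and 8.01 at day 1 and 5.77 and 5.66 at day 3. Control arrays read 5.12 and 5.10 at day 1 and 6.64 and 6.53 at day 3. Vcam1, an adhesion molecule of red pulp macrophages and stroma, read 9.47 and 9.60 at day 1 and 4.79 and 4.68 at day 3 (-4.80, SE 0.25, adjusted p = 7e-07). Csf1r, the receptor for the macrophage growth factor, read 9.98 and 10.30 and then 6.29 and 6.04 (-3.97, SE 0.29, adjusted p = 1.1e-05). Slc40a1, the iron exporter of macrophages that recycle red cells, read 9.15 and 9.55 and then 6.27 and 6.19 (-3.13, SE 0.29). The complement gene C1qa went from 8.41 and 8.79 to 5.55 and 5.63 (-3.01, SE 0.31). In each case both day 1 arrays were far above both day 3 arrays, while control arrays moved up between the days, by 3.44 for Vcam1 and 1.74 for Csf1r. Adgre4, a receptor of macrophages outside that list, read 7.36 and 7.32 and then 3.39 and 3.19 (-4.05, SE 0.25). The table gives no detection calls, so values below the array medians, such as those of Adgre4, Vcam1 and Slc4a1 at day 3, may lie at background, and the differences are those of the measured values.

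Erythroid, NK, T and dendritic cell markers shifted by fewer members. Slc4a1, the anion exchanger of red cells, read 8.31 and 7.95 at day 1 and 3.92 and 4.29 at day 3 (-4.02, SE 0.23, adjusted p = 1.6e-06). Of 9 erythroid and platelet markers it and Alas2 fell and 0 rose. Of 9 NK cell markers 5 fell and 0 rose, among them Klrd1 (-1.79) and Klra8 (-1.75), and 2 of them fell without day 1 replicate 1 or either day 3 array. Of 12 T cell markers 3 fell (Cd2, Cd8b1, Cd3d), and of 9 dendritic markers 2 fell (Ccr9 by 1.17, Siglech by 0.99). Of 10 stromal and endothelial markers Pecam1 fell, from 7.30 and 6.57 to 4.85 and 4.86 (-2.08). No list of other cells had a member that rose.

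Neutrophil markers showed a difference within day 1 instead. S100a8 read 6.61 and 10.42 at day 1 and 5.96 and 5.93 at day 3, and S100a9 6.52 and 10.54 and then 5.88 and 5.77, so day 1 replicate 2 was the high one of the 4 arrays. With 12 measured, 0 fell and 0 rose, and the list mean was 4.88 and 6.37 at day 1 against 4.67 and 4.60 at day 3. Day 1 replicate 2 exceeded replicate 1 by a list mean of 1.48 for neutrophil and 0.44 for macrophage markers, and lay below it by 0.48 for NK cell markers (-0.48) and 0.32 for B cell markers (-0.32). These marker levels moved with the falls of mature B cell, MHC class II, quiescence and homing genes between the days, and their part in those results was not tested.

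**Figure D3:**
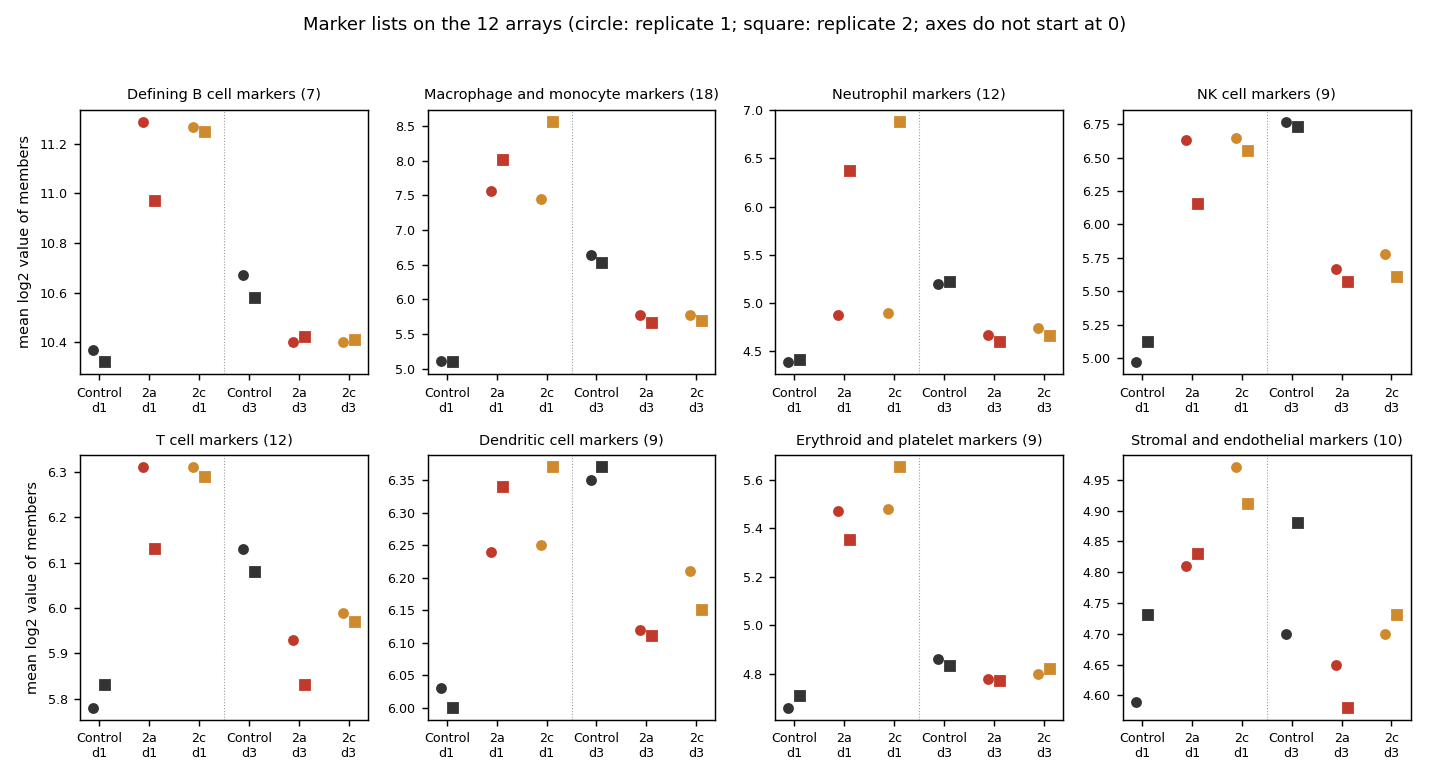
Mean log2 level of the measured members of 8 marker lists (vertical axes) on each of the 12 arrays, by label and day (horizontal axes; control black, 2a red and 2c orange for the labels Jmjd2a- and Jmjd2c-depleted; circles are replicate 1, squares replicate 2). The macrophage list falls from 7.56 and 8.01 to 5.77 and 5.66 with the Jmjd2a label, and the neutrophil list is high on replicate 2 of day 1 with either depletion label (6.37 and 6.88).

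Genes of mitosis and the spindle rose almost as a whole: 30 of 31 measured members rose, 0 fell, and the median was 0.70, which is 1.63-fold. Ccnb2, a B-type cyclin that drives entry into mitosis, read 8.30 and 8.29 at day 1 and 9.44 and 9.31 at day 3, a 2.11-fold rise (1.08, SE 0.09, adjusted p = 2.7e-05). Cenpe, the kinetochore motor, read 7.36 and 7.25 and then 8.32 and 8.24 (0.98, SE 0.09), and Ube2c, the conjugating enzyme of the anaphase-promoting complex, 9.87 and 10.01 and then 11 and 10.77 (0.94, SE 0.09, adjusted p = 6e-05). Hmmr, a spindle protein, read 7.71 and 7.63 and then 8.57 and 8.53 (0.89, SE 0.09). Replicates of a day lay close together for these genes, and the days were clearly apart. Mki67, the proliferation antigen Ki-67, rose by 0.51 (adjusted p = 3e-04), Cdk1 by 0.64 and Plk1 by 0.77. Cdc25b (-0.18, adjusted p = 0.75) was the member that did not pass, and Ccnb1 had no probe set of its own. At least 21 members passed when any of the 4 arrays or control day 3 replicate 2 was left out. Cdkn3, a phosphatase whose level peaks in mitosis, stood among the kinase inhibitors as the member that rose, from 6.48 and 6.61 to 7.72 and 7.64 (1.14, SE 0.11).

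Promoters of the mitosis genes were searched for letter patterns, including a site already known from genes of this kind. The shares follow from the genome sequence and the choice of the list, and not from the arrays. The cell cycle homology region (CHR, TTTGAA on either strand), a site known for the timing of G2/M genes, was found in 22 of 28 RefSeq windows of 26 matched genes (78.6%), against 13.4% of windows of measured genes and 17.9% of all windows. The CCAAT box (CCAAT on either strand) lay in 82.1% of them, against 37.4% in both backgrounds. It was not particular to this list, with 73.1% of windows of DNA replication genes and 80% of those of cholesterol genes. Among genes that rose as a whole, which include the risen mitosis genes, 21% of windows held the CHR, and among genes that fell 12.4%. The windows of 3 mitosis genes with large rises are shown 5′ to 3′, with CHR and CCAAT letters in capitals, which join where matches touch or overlap: Ccnb2 at chr9:70421505-70421804 (minus strand), Ube2c at chr2:164769679-164769978 (plus strand) and Hmmr at chr11:40733388-40733687 (minus strand), all GRCm38.p6.
Ccnb2: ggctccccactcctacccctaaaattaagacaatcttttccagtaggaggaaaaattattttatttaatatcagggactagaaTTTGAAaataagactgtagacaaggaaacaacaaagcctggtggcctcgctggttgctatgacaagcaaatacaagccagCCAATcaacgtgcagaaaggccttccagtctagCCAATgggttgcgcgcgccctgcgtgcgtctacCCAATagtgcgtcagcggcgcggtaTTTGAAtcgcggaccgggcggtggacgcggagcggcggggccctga
Ube2c: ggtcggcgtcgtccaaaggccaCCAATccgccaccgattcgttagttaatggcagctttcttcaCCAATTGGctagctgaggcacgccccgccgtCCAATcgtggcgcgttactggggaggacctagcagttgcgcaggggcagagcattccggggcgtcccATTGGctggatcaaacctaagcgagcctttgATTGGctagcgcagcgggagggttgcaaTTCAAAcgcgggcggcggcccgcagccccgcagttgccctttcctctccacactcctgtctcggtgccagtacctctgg
Hmmr: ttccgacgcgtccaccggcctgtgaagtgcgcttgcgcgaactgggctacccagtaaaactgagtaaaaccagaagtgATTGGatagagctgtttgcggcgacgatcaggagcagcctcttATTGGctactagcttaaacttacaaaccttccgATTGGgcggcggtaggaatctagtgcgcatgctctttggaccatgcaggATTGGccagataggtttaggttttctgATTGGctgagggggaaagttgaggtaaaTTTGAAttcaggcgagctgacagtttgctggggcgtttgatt
In Ccnb2 the CHR matches began at -167 and 4 and the CCAAT boxes at -87, -54 and -21, counted from the transcription start. Hmmr held 1 CHR match at 8 and 5 CCAAT boxes, all on the other strand, and Ube2c 1 CHR match on the other strand at -29. A match is a description of letters and not of a bound site.

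DNA replication and G1/S genes rose by less: 17 of 29 measured members rose, 0 fell, and the median was 0.39. Rrm2, the regulated subunit of ribonucleotide reductase, read 10.94 and 10.92 at day 1 and 11.34 and 11.38 at day 3 (0.43, SE 0.05, adjusted p = 0.00023). E2f8 (0.66), the polymerase gene Pole (0.56), Tk1 (0.56), Cdc6 (0.52) and Cdc45 (0.51) rose as well. Of the MCM helicase, Mcm4, Mcm5, Mcm6 and Mcm10 rose by 0.24, 0.27, 0.25 and 0.44, while Mcm2 (0.22) and Mcm3 (0.30) did not pass. Mcm7 did not pass at its brightest probe set (0.20) and passed as higher at 2 others (0.31 and 0.34). Cdt1 (-0.03) and Pcna (0.13) did not pass either. The number of risen members was 10 without day 1 replicate 1, 5 and 6 without day 3 replicate 1 or 2, and 26 without control day 3 replicate 2. Of 26 windows of 24 matched genes, 8 (30.8%) held an E2F-type site (TTTCCCGC or TTTGGCGC, both strands), against 2.34% of windows of measured genes and 1.56% of all. The site did not separate members that rose from the rest. It lay in windows of Mcm5, Mcm6, Cdc6 and Pola1, which rose. It also lay in those of Mcm3, Mcm7, Cdt1 and Rfc3, which did not pass at their brightest probe sets. The window of Mcm5, which rose from 11.52 and 11.60 to 11.84 and 11.82, is shown as an example, at chr8:75109259-75109558 (plus strand, GRCm38.p6), with its E2F-type match at -149 and its CCAAT boxes in capitals.
Mcm5: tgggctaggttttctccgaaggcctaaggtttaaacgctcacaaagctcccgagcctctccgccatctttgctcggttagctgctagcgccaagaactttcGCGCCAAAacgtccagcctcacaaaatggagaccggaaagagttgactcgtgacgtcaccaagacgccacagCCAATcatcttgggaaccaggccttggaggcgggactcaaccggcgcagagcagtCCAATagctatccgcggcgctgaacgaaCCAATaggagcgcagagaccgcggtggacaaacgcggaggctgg

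In lists of biosynthesis some members rose, by small amounts. Of 15 genes of cholesterol synthesis and uptake 9 rose, 0 fell, and the median was 0.26. Hmgcs1, which makes the first committed intermediate, read 11.92 and 11.84 at day 1 and 12.13 and 12.11 at day 3 (0.24, SE 0.04, adjusted p = 0.0046). Lss and Mvk rose by 0.44 and 0.46. Of 27 genes of ribosome biogenesis 7 rose, 0 fell, and the median was 0.17. Polr1c, a subunit of RNA polymerases I and III, read 10.26 and 10.29 and then 10.62 and 10.63 (0.35, SE 0.05, adjusted p = 0.0024), and Srm, which makes spermidine, rose by 0.25. Day 3 arrays were higher throughout for these genes, by steps of well under 1 log2 unit. Of 14 genes of glycolysis and sugar transport 6 rose, among them Tpi1 (0.34) and Pgk1 (0.19), and the glucose transporter Slc2a3 fell by 0.61. Of 18 Atf4 response genes 2 rose (Psat1 by 0.40, Mthfd2 by 0.25), a count that was 1 without day 1 replicate 1 or either day 3 array and 6 without control day 3 replicate 2. Over all genes 3.41% rose. Without day 1 replicate 1, day 3 replicate 1 and day 3 replicate 2 the risen members numbered 1, 0 and 1 for cholesterol, 1, 1 and 1 for ribosome biogenesis, and 3, 1 and 2 for glycolysis. Without control day 3 replicate 2 they numbered 13, 14 and 7.

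The 12 largest rises were of genes from other groups. Gzmb, the cytotoxic protease granzyme B, read 5.96 and 5.98 at day 1 and 8.06 and 7.82 at day 3, a 3.92-fold rise (1.97, SE 0.16, adjusted p = 2e-05). Gbp2, an interferon-induced GTPase, read 9.06 and 8.87 and then 11 and 10.80 (1.93, SE 0.11, adjusted p = 2e-06). Fnbp1l, which shapes membranes during endocytosis, read 4.68 and 5.0 and then 7.07 and 7.02 (2.20, SE 0.14, adjusted p = 4.4e-06). Lack of overlap between the days was a condition for choosing these genes, and 51.5% of all probe sets met it. 2900026A02Rik, a gene known by its clone name, had the largest rise, 2.25, from 5.32 and 4.73 to 7.29 and 7.27. Ifitm1, an interferon-induced membrane protein, rose by 1.59, the myosin Myo1f by 1.40 and Fah, the last enzyme of tyrosine breakdown, by 1.39. Fabp4, a fatty acid carrier, rose by 1.38 from 3.60 and 4.70 to 5.54 and 5.52, a call lost without day 1 replicate 1 and without either day 3 array.

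Some of these belong to lists whose other members did not follow. Of 20 interferon-induced genes 3 rose (Gbp2, Iigp1 by 0.83, Ifih1 by 0.56) and Rsad2 fell by 1.32, with a median of 0.06. Without day 1 replicate 1 or either day 3 array only 1 rose, Gbp2. Of 14 S100, annexin and galectin genes 6 rose and 0 fell. Anxa1 read 8.52 and 8.91 and then 10.37 and 10.08 (1.51, SE 0.19), S100a4, a calcium-binding protein of motile cells, 6.56 and 6.15 and then 7.92 and 7.52 (1.36, SE 0.20, adjusted p = 0.0017), and Lgals1 rose by 0.74. Without day 3 replicate 1 or 2, 3 members of that list had risen. Of 16 lipid handling and lysosome genes Fabp4 and Fabp5 (0.99) rose, while the scavenger receptor Cd36 fell by 2.59 and the cholesterol exporters Abca1 and Abcg1 by 2.25 and 1.5, and Lgmn fell by 0.53.

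No plasma cell gene passed as higher at its brightest probe set. Of 19 measured plasma cell factors and products 0 rose and 2 fell, Cxcr4 by 1.70 and Tnfrsf17 (BCMA) by 0.76, with a median of -0.13. Cxcr4 was counted in the homing list as well. Tnfrsf17 read 4.61 and 4.47 at day 1 and 3.56 and 3.98 at day 3, below the array medians, so its values may lie at background. Without control day 3 replicate 2, 6 fell and 1 rose, without day 1 replicate 2 also 1 rose, and without day 3 replicate 1 only 1 fell. Tnfrsf17 lost its call without day 1 replicate 1 or day 3 replicate 1. Prdm1, which encodes Blimp-1, read 7.24 and 7.63 at day 1 and 7.67 and 7.58 at day 3 (0.19, SE 0.16, adjusted p = 0.63). Xbp1 read 11.84 and 11.90 and then 11.90 and 11.85 (0.01, adjusted p = 0.98), and Irf4 9.51 and 9.80 and then 9.32 and 9.26 (-0.36, adjusted p = 0.061). For these 3 regulators the arrays of the days overlapped or the difference did not pass. Sdc1, the plasma cell antigen CD138, differed by 0.32 at its brightest probe set (adjusted p = 0.059), and 1 of 3 others passed as higher (0.42, adjusted p = 0.02). Jchain, the joining chain of secreted antibody, differed by -0.47 (adjusted p = 0.11). Ighm read 14.31 and 14.23 and then 14.20 and 14.11 (-0.11, adjusted p = 0.19), while another of its probe sets passed as lower (-0.34, adjusted p = 0.0073). In a list of immunoglobulin chains, with 6 measured, Vpreb3 fell by 2.27. Iglv1 did not pass at its brightest probe set, and another of its probe sets passed as lower (-1.92). Of 23 genes of the secretory pathway and unfolded protein response 0 rose and 2 fell, Dnajb9 by 0.65 and Pdia4 by 0.51, and 0 fell without day 3 replicate 1 or 2. Over all genes 3.41% rose and 4.31% fell.

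Genes of the germinal centre and class switching gave 1 rise and 1 fall among 14. Over all genes 3.41% rose and 4.31% fell, and counts this small are not read as a result about the list. Ung, which excises uracil from DNA, rose by 0.44, and the coactivator Pou2af1 fell by 0.20. Bcl6 differed by -0.29 (adjusted p = 0.096). Of 16 genes of the Myc network and its cyclins, Cdk4 and Mxd3 rose by 0.35 and 0.59, and Mxi1 and Mxd4 fell by 0.90 and 0.75. The D cyclins did not pass at their brightest probe sets. Other probe sets passed as higher for Ccnd2 (0.32, 0.26 and 0.24) and as lower for Ccnd1 (-0.85) and Ccnd3 (-1.57). Myc read 10.68 and 10.51 and then 10.33 and 10.34 (-0.26, adjusted p = 0.17). In the Bcl2 family, with 14 measured, the death promoter Bcl2l11 (Bim) rose by 0.70, and Bmf, Bcl2 and Mcl1 fell by 1.59, 0.38 and 0.23. The calls of Ung, Pou2af1, Cdk4, Mxd3, Mxi1, Mxd4, Bmf, Bcl2 and Mcl1 were each lost without at least 1 of the 4 arrays, and that of Bcl2l11 was kept. Without control day 3 replicate 2, 4 germinal centre genes and 3 kinase inhibitors had risen. Heat-shock genes gave 0 rises and 0 falls among 16, and 2 rises and 1 fall without control day 3 replicate 2. Hspa1b read 10.85 and 9.61 at day 1 and 9.69 and 8.32 at day 3, so replicate 1 was higher on both days (-1.22, SE 0.51, adjusted p = 0.23).

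**Figure D4:**
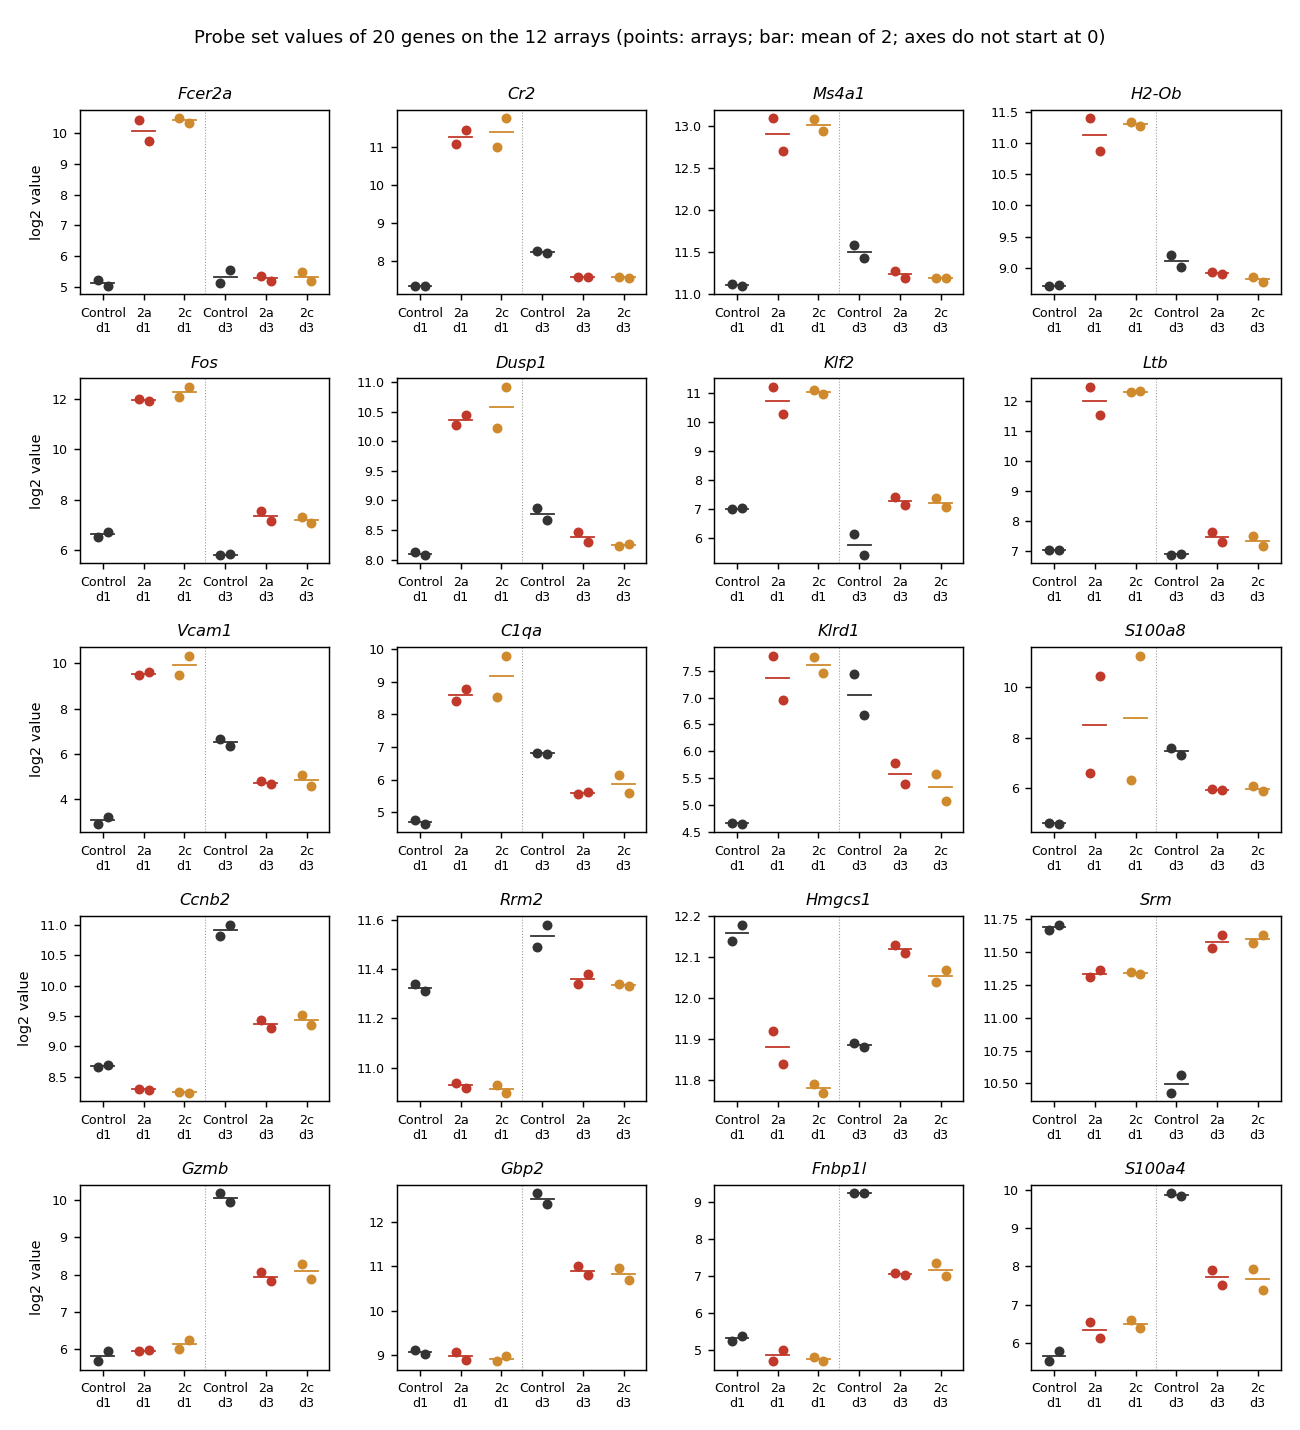
Log2 levels of 20 genes (vertical axes) on the 12 arrays by label and day (horizontal axes; control black, 2a red and 2c orange for the labels Jmjd2a- and Jmjd2c-depleted; points are arrays, bars the mean of 2). Fcer2a drops from 10.42 and 9.75 to 5.35 and 5.2 with the Jmjd2a label, to near the controls, while Gzmb rises to 8.06 and 7.82, below the control arrays of day 3.

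The control arrays changed differently over the same 2 days. The Jmjd2a change minus the control change, tested as an interaction, passed for 8264 of 45037 probe sets (18.3%), 5401 higher (12%) and 2863 lower (6.36%). By gene it passed for 4239 of 18193 (23.3%), with 14.5% higher and 8.78% lower. In controls 5167 genes passed between the days (28.4%). Over genes the Jmjd2a and control changes, which share no array, correlated at r = -0.05 (Spearman -0.09, 18193 genes, a description). Of the 620 genes that rose with Jmjd2a, 258 (41.6%) also rose in controls, where 2046 rose (11.2% of all genes), and 181 fell there. Of the 785 that fell, 109 (13.9%) also fell in controls, where 3121 fell (17.2%), and 238 rose there. Those shares are 12.6% and 3.49% of the control rises and falls. Without control day 3 replicate 1 the interaction passed for 14662 probe sets, and without Jmjd2a day 3 replicate 2 for 5277.

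The groups of genes differed in how they compared. Mitosis genes had medians of 0.70 with the Jmjd2a label and 1.24 in controls, and the change was lower with the label in 18 of 31 members. Replication genes had a control median of -0.39, and 25 of 29 were higher relative to control. Ribosome biogenesis genes had a control median of -0.84, and 26 of 27 were higher relative to control. Macrophage markers had a control median of 1.73, and 17 of 18 were lower relative to control. Vcam1 differed by -8.25, and C1qb by -4.24 at its brightest probe set and by -7.18 at another. Vcam1 read below the array medians on control arrays of day 1 (mean 3.08), so the sizes of its differences rest on low values. The medians of these lists on the Jmjd2a arrays kept their sign under quantile normalization and median centring.

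Some genes kept their level with the Jmjd2a label and lost it in controls. Pcp4, a calmodulin-binding peptide, read 8.42 and 8.46 at day 1 and 8.67 and 8.58 at day 3 with the label (0.19, adjusted p = 0.70), and 8.76 and 8.86 and then 4.03 and 4.78 in controls, a difference of 4.59 between the changes. Rgs13, a regulator of chemokine receptor signalling in germinal centre B cells, read 7.92 and 8.36 and then 8.29 and 8.45, against 8.47 and 8.55 and then 5.45 and 4.93 in controls (3.55). Kdm6b, an H3K27 demethylase, read 8.20 and 8.38 and then 8.19 and 8.34, against 8.61 and 8.68 and then 5.96 and 5.26 (3.00). For each, the day 3 controls were the low arrays. Pigr followed the same order, with 3.32.

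Levels at day 3 were also set against those of the controls. Genes that fell stood above the day 1 controls by a median of 0.79 at day 1 and of 0.07 at day 3. The 12 largest falls stood above the day 1 controls by a median of 4.11 at day 1 and 0.19 at day 3. Fcer2a, for example, reached a mean of 5.13 in day 1 controls, and Fos 6.63. Genes that rose stood at -0.35 at day 1 and 0.06 at day 3. Over all genes the medians were -0.04 at day 1 and 0.00 at day 3. The sets were chosen by the change between the same Jmjd2a arrays, so part of their shift follows from the choice. The 12 largest rises stood above the day 1 controls at day 3, by a median of 1.70 and by 1.0 to 2.13. All 12 lay between control day 1 and control day 3 (all genes 52.4%), at 19.1% to 39.5% of the level of day 3 controls on the linear scale. Gzmb had a mean of 10.06 and Gbp2 of 12.53 in those controls.

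No difference from the change on the arrays labelled Jmjd2c-depleted passed the test. The Jmjd2a change minus the Jmjd2c change passed for 0 of 45037 probe sets in limma (0%), with 1138 at an unadjusted p under 0.05 and 10 past the test without control day 3 replicate 2. The median half-width of its 95% interval was 0.41 log2, so smaller differences could go unseen, and a missed threshold does not show that the labels act alike. Over genes the changes, which share no array, correlated at r = 0.88 (Spearman 0.61). Of the 620 genes that rose with Jmjd2a, 480 (77.4%) rose with Jmjd2c, and of the 785 that fell, 752 (95.8%) fell there, with 0 opposite calls in either set. With the Jmjd2c label 2109 genes passed (11.6%), 865 higher (4.75%) and 1244 lower (6.84%), and the shared calls are 55.5% of those rises and 60.5% of those falls. Fcer2a changed by -5.09 with Jmjd2c, Fos by -5.09, Ccnb2 by 1.19 and Gzmb by 1.94. Replicate differences of day 1 correlated at 0.392 between both labels, and neutrophil markers were high on replicate 2 of day 1 of each. The part of this in the likeness of the changes was not tested.

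**Figure D5:**
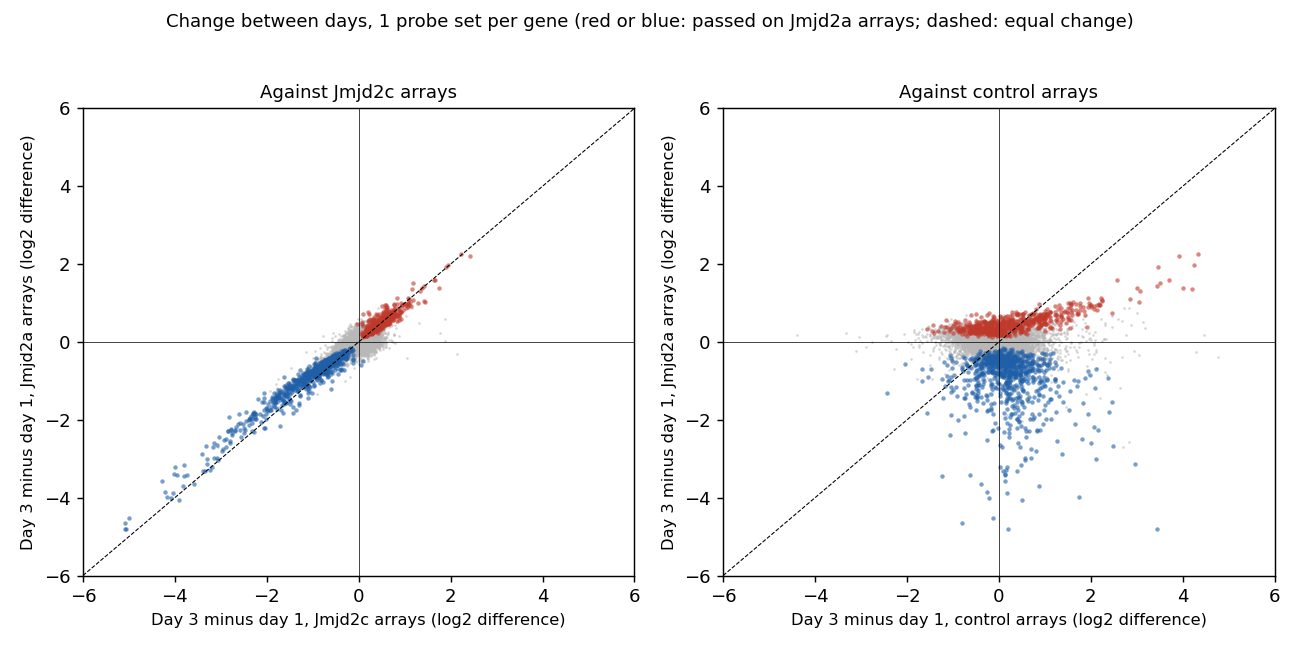
Change between day 1 and day 3 with the Jmjd2a label (vertical axes, log2 difference) against the change with the Jmjd2c label (left) and in controls (right), 1 point per gene of 18193; red and blue points passed as higher or lower with the Jmjd2a label, and the dashed line marks equal change. Points follow the line on the left (r = 0.88) and do not on the right (r = -0.05).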

How the data were processed

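The deposited table held log2 expression values of 12 Affymetrix mouse expression arrays from the authors; the summary method and normalization are not given in the sources used here, and scale was read from the values. Of 45101 probe sets, 64 array controls were left out. By platform annotation, 34945 of the remaining 45037 named 1 gene, 932 several and 9160 none; the brightest of a gene's own probe sets over the 12 arrays stood for it.

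A model with 6 groups was fitted to all 12 arrays with limma 3.58.1 (R 4.3.3; lmFit and eBayes with an intensity trend; 6 residual and 5.85 prior degrees of freedom). P-values were adjusted by Benjamini-Hochberg over all 45037 probe sets, with a threshold of 0.05. Changes were compared as differences of differences. The spread is therefore shared by all groups. On simulated data with 200 changed probe sets among 45037, the fit of day 3 against day 1 found 38.8% of the probe sets changed 1.5-fold, 91% of those changed 2-fold and 100% of those changed 4-fold, and made 5 false calls. The simulation drew independent normal values with the same spread on all 12 arrays. On the real arrays the pooled replicate SD ran from 0.115 (Jmjd2a day 3) to 0.259 (control day 3). The simulated figures are therefore not the error rate of the real comparison. Array number, 2 per group, limits precision. Figures were drawn with matplotlib 3.10.9.

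The comparison, its members and the gene lists were chosen with earlier results of these data known. Named genes were the regulators the study's question concerns, the 12 largest rises and 12 largest falls, up to 4 members of smallest p per list, and the 4 largest differences from the control change in each direction. Those 12 rises and 12 falls had to pass the test and not overlap between days, and the mean of the higher day had to exceed the median probe set mean of 5.22; differences from the control change met the same conditions except the overlap. No detection call was used, and other counts had no filter on low values. Other list members named as examples were chosen after their values were seen.

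Replicate numbers were checked for pairing: deviations of the same number correlated at -0.111 to 0.392 over 15 pairs of groups, and at 0.005 between both Jmjd2a days, so they were not treated as pairs. The highest value was that of Jmjd2a day 1 with Jmjd2c day 1. Alternatives were quantile normalization, median centring, omission of dim probe sets, no intensity trend, array weights, a replicate block, 1 probe set per gene, other thresholds, fewer arrays, and omission of control day 3 replicate 2 and of each array of the groups compared. Where an omission leaves a lone array, it is assumed to vary like the other groups. Promoter windows came from RefSeq on GRCm38.p6, with 32851 windows in all and 18109 of measured genes.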

Additional observations from a re-analysis of the deposited data

Results flagged for a closer look

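The change between day 1 and day 3 differed between the arrays labelled Jmjd2a-depleted and the controls for 8264 probe sets, by limma's interaction test with Benjamini-Hochberg adjustment. Values here are log2, the Jmjd2a change minus the control change. Among regulators and products of B and plasma cells the difference passed for Xbp1 (-0.79), Irf4 (-0.59), Sdc1 (1.52), Jchain (-1.81), Bach2 (0.71) and Ighm (-0.74). Among genes of growth and division it passed for Myc (1.01), Mki67 (-0.75) and Cdkn1b (-1.42).

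All 12 of the largest rises were smaller than the control rise of the same gene. The differences were -2.07 for 2900026A02Rik, -1.71 for Fnbp1l, -2.28 for Gzmb, -1.54 for Gbp2, -0.98 for Ifitm1 and -2.11 for Cxcl10. They were -1.99 for Anxa1, -2.01 for Ccl22, -1.69 for Myo1f, -1.62 for Fah, -2.62 for Fabp4 and -2.84 for S100a4.

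The 12 largest falls also differed from the control change. They were chosen by the Jmjd2a change, which is part of this difference, so the choice itself favours a pass. Over all genes 23.3% passed. The differences were -5.01 for Fcer2a, -8.25 for Vcam1, -3.82 for Fos, -4.39 for Ltb, -4.55 for Adgre4 and -3.80 for Slc4a1. They were -5.72 for Csf1r, -4.05 for Mirt1, -3.60 for Acp5, -5.02 for Frmd4b, -4.58 for Cr2 and -3.27 for Cd55.

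The largest negative differences further included Slc40a1 (-6.08) and a probe set of C1qb (-7.18). The largest positive differences were those of Pcp4 (4.59), Rgs13 (3.55), Pigr (3.32) and Kdm6b (3.00), genes that fell in controls.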

How the results depend on the processing

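With 2 arrays per group, counts of passing probe sets moved with the variance model. For day 3 against day 1 (2527 probe sets, 1017 higher and 1510 lower), the count was 1593 without an intensity trend (510 higher), 5308 with array weights (2646 higher, 2662 lower), 225 when tested for at least 1.5-fold (16 higher, 209 lower), 4476 with only the 8 depleted arrays (2182 higher, 2294 lower) and 3820 at an adjusted p under 0.1 (1763 higher). With 1 probe set per gene, 942 were lower. Omission of 1 of the 4 Jmjd2a arrays or of control day 3 replicate 2 gave 761 to 5542 (208 to 2873 higher, 553 to 2669 lower). Of these 5 omissions, that of Jmjd2a day 3 replicate 2 gave the lowest count and that of control day 3 replicate 2 the highest. Quantile normalization gave 3055, median centring 2291 and a fit of only the 4 arrays 3373.

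The difference from the control change (8264, 5401 higher and 2863 lower) was 4684 with 1 probe set per gene (2864 higher, 1820 lower) and 1159 for at least 1.5-fold (561 higher, 598 lower). Omission of 1 array of the groups compared gave 5277 to 14662 (3446 to 8904 higher, 1831 to 5758 lower), lowest without Jmjd2a day 3 replicate 2 and highest without control day 3 replicate 1. The difference from the Jmjd2c change gave 0 to 10. The cause of these shifts was not tested, except where fewer genes or a stricter threshold sets them.

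Replicate numbers were not used as pairs, though those of day 1 deviated together between Jmjd2a and Jmjd2c (0.392). With the replicate block, 2681 probe sets passed (1025 higher, 1656 lower) and 8317 differed from the control change. Of 120 named genes that passed, 81 kept their call under each omission of 1 Jmjd2a array and 39 lost it under at least 1. Of 70 with another probe set, 53 had another that passed the same way and 0 one that passed the opposite way.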
